A study of Mus musculus with 18 samples.

Results

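Small RNA sequencing was used to ask whether mature microRNAs (miRNAs) in mouse knee cartilage differ 1 day after the anterior cruciate ligament (ACL) was ruptured from those in cartilage of mice that were never loaded. The comparison set 3 libraries of injured right knees collected at day 1 (day 1 ACL) against 6 libraries of naïve mice, 9 of the 18 libraries of the series, and took in the 428 of 1412 miRNAs that passed a filter on low counts. All mice were wild-type C57bl6, and per the study's methods they were male and 12 weeks old. The ACL was ruptured by 1 load of 12 N on the flexed right knee, under isoflurane and with buprenorphine for pain. Naïve mice received no load. Cartilage caps of the femoral condyle were cut from the bone at the tidemark and pooled before RNA extraction. The series text gives pools of 4 mice, whereas the methods count 6 mice killed at day 1 and 6 naïve mice, and the pool behind each library is not labelled. Left and right naïve knees were pooled apart, so by the methods' count of 6 naïve mice the 6 naïve libraries share mice. The tests treat them as independent, and p-values measure only the spread between these libraries. The naïve group carries the label of day 7, so the day of collection and the injury cannot be told apart in this comparison.

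miRNAs are short RNAs that guide Argonaute proteins to messenger RNAs. Pairing runs mainly through the seed, bases 2 to 8 from the 5′ end, and miRNAs with the same seed tend to share targets. Each hairpin precursor can give a 5p and a 3p arm, of which 1 is usually kept and the other mostly degraded. In cartilage, miR-140 is transcribed with Wwp2 under the control of the chondrocyte factor SOX9 and is needed for normal skeletal growth. miR-146a and miR-155 are induced by innate immune signals, and miR-21 and miR-27b have been described as responsive to mechanical load.

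The mature sequences of miRNAs on which the comparison turned are given 5′ to 3′ with the seed in capitals, from RefSeq on GRCm38.p6. A RefSeq mature sequence was found for 85.3% of the 428 miRNAs. The first set holds miRNAs with an unadjusted p under 0.05, together with miR-365-1-5p, which shares the seed of miR-365-2-5p.
miR-125b-1-3p: aCGGGUUAggcucuugggagcu
miR-132-5p: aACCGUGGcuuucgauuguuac
miR-1843a-3p: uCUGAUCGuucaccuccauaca
miR-6538: cGCGGGCUccggggcggcg
miR-365-2-5p: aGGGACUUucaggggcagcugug
miR-365-1-5p: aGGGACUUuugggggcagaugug
miR-193b-5p: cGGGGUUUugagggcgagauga
miR-1934-5p: uCUGGUCCccugcuucguccucu

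The second set holds some of the miRNAs with a negative fold change that lay near the threshold or whose groups did not overlap. miR-34c-3p, for which the groups overlapped, is added because it carries the seed of miR-34b-3p.
miR-329-3p: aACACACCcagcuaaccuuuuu
miR-18a-5p: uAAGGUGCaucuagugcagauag
miR-181c-5p: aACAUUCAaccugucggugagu
miR-152-5p: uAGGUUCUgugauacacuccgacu
miR-16-2-3p: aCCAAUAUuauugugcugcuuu
miR-34b-3p: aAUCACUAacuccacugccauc
miR-34c-3p: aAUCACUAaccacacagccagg

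The third set holds miRNAs of cartilage, of the innate response and of the later injury response, for which the size of change that the data allow at day 1 was of interest.
miR-140-3p: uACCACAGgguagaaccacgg
miR-455-5p: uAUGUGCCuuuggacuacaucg
miR-21a-5p: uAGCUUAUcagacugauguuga
miR-146a-5p: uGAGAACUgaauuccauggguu
miR-199a-5p: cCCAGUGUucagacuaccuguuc
miR-134-5p: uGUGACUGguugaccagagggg
miR-335-3p: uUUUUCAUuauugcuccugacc

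The 9 libraries held between 864123 counts (naïve replicate 5) and 2891298 counts (day 1 ACL replicate 3). Day 1 ACL libraries had a mean total of 1989765 ± 980040 counts (SD, n = 3), and naïve libraries one of 1698267 ± 572651 (SD, n = 6) (exact permutation test over 84 assignments, two-sided, p = 0.56). The share of counts in the 5 most abundant miRNAs was 47.13% in day 1 ACL and 44.33% in naïve libraries (exact permutation test, p = 0.643). The number of miRNAs expected at the lowest total was 617.5 in day 1 ACL and 630.4 in naïve libraries (exact permutation test, p = 0.512). Neither difference passed the threshold. All 3 measures had an adjusted p = 0.643 by that exact test, which can reach 0.0119 at the smallest. The 3 libraries with the lowest totals were naïve 5, day 1 ACL 2 and naïve 3, and they stood apart from the other 6. Their mean Euclidean distance on log2 counts scaled to a common library size (CPM, with TMM factors) was 12.67 among themselves and 17.48 to the others, whereas the other 6 lay 11.51 apart on average. Day 1 ACL replicate 2 was nearest to naïve replicate 3, at 12.36, and day 1 ACL replicate 1 was nearest to naïve replicate 4, at 8.895. The mean distance was 16.89 within the day 1 ACL group, 13.97 within the naïve group and 14.73 between the groups, so injured libraries lay no farther from naïve libraries than from each other. In those 3 libraries the TMM factor was between 1.26 and 1.36, against 0.712 to 1.06 in the other 6. Spearman's rho between a miRNA's GC content and its deviation from the mean of its own group was between 0.36 and 0.54 there, against -0.6 to -0.14 in the other 6. Deviations from a group mean cancel within the group, so the opposite signs are partly built in. These correlations run over miRNAs within 1 library and are given as a description. The log2 fold changes of day 1 ACL versus naïve themselves had a Spearman's rho of 0.33 with GC content, over miRNAs with a RefSeq mature sequence. How much GC content contributed to single values was not tested.

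**Figure D1:**
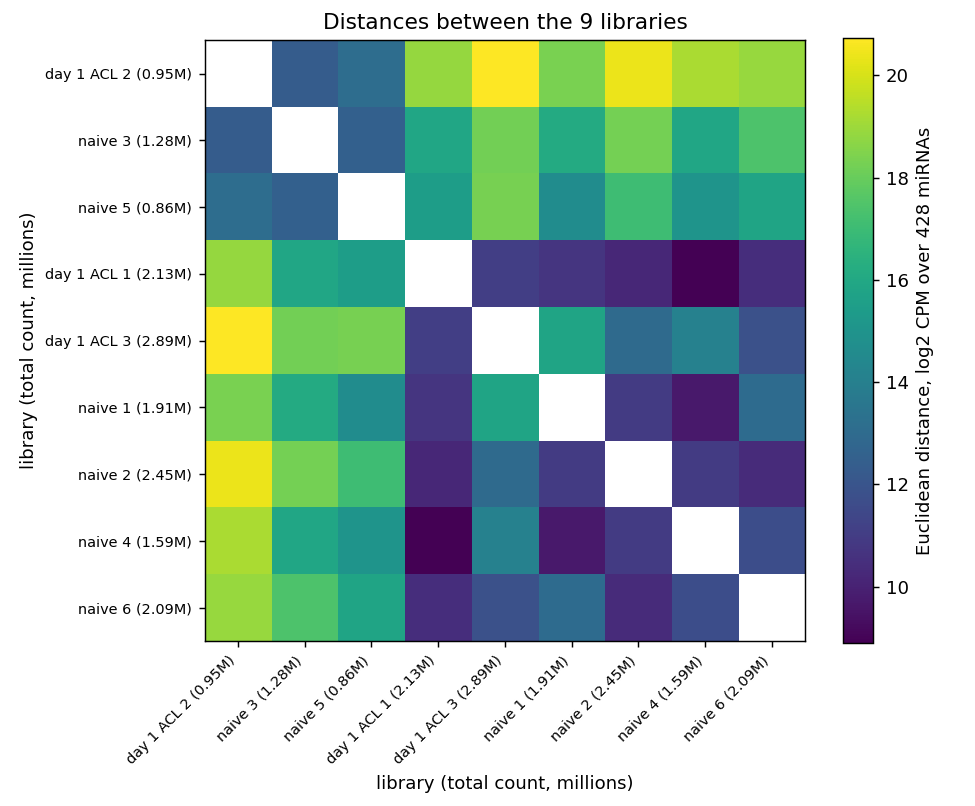
Euclidean distance between each pair of the 9 libraries, from log2 CPM of 428 miRNAs, with the total count of each library (M) on both axes. Day 1 ACL 2, naïve 3 and naïve 5 form the dark block at the upper left, with distances of 12.36 to 13.13, and lie at least 14.67 from the other 6 libraries.

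The tissue label was checked against miRNA markers. Cartilage markers were present in every library: miR-140-5p and miR-140-3p had means of 4667 and 2709 CPM over the 9 libraries, and the 4 arms of miR-140 and miR-455 together took between 6004 and 10499 CPM. Skeletal muscle miRNAs took far more, with summed levels of 67530 to 198954 CPM in naïve and 55120 to 274872 CPM in day 1 ACL libraries. Of the 11 arms in that list, 10 had a count and 7 were tested. miR-1a-3p, the main miRNA of striated muscle, was the most abundant miRNA of all on average. Its level was 187831, 50883 and 268001 CPM in day 1 ACL libraries 1 to 3, and the naïve libraries ran from 63550 through a median of 138126 to 191106 CPM. In bulk tissue, fewer cells of a type and less RNA per cell cannot be told apart.

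No miRNA differed between day 1 ACL and naïve cartilage past the threshold. By limma-voom, adjusted by the Benjamini-Hochberg method, 0 of 428 miRNAs had an adjusted p under 0.05 (0%), and the smallest adjusted p was 0.992. An unadjusted p under 0.05 was reached by 8 miRNAs (1.87%), and 5 of the 8 had under 10 CPM. All 8 had a higher mean in day 1 ACL with TMM scaling, but that direction depended on the scaling and on single libraries. With library totals only, 9 miRNAs were under 0.05 and 0 of them were higher, and with the size factors of DESeq2 (RLE) 6 of 9 were higher. Without day 1 ACL 3, 1 of 5 was higher, and without naïve 3, 6 of 19 were. edgeR's quasi-likelihood test and DESeq2 also called 0 miRNAs, with 6 and 5 at an unadjusted p under 0.05. Without the 3 libraries of lowest total, a fit added after the data were seen, limma-voom again called 0 miRNAs, with 15 at an unadjusted p under 0.05. Log2 fold changes ran from -1.37 (miR-34c-3p) to 1.46 (miR-1934-5p), with a median absolute value of 0.21 against a median standard error (SE) of 0.33. The sign was positive for 248 miRNAs (57.9%) and negative for 180, with a median of 0.07. The median was -0.15 when libraries were scaled by their totals only, a shift of the whole distribution against which small list medians have to be read. All 11 miRNAs with a fitted change of at least 2-fold had a mean under 10 CPM.

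**Figure D2:**
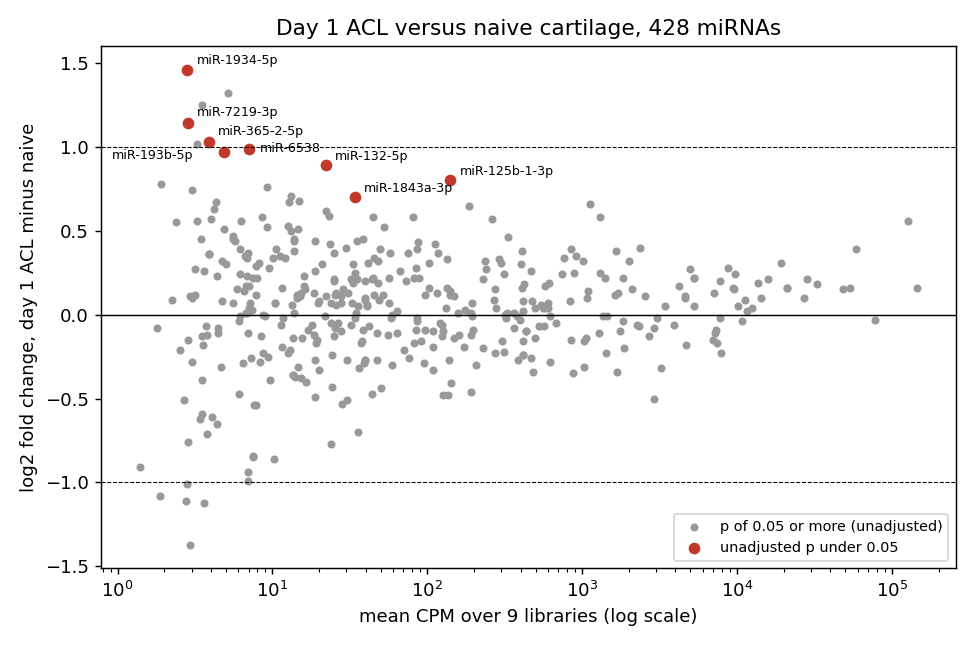
Log2 fold change of day 1 ACL minus naïve cartilage against mean CPM over 9 libraries on a log axis, 1 point per miRNA, with dashed lines at 2-fold either way. The 8 red points have an unadjusted p under 0.05 and lie above 0 with TMM scaling, whereas 0 of 9 such miRNAs were higher with library totals only, and no point above 10 CPM lies beyond the dashed lines.

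The intervals say how large a change could have been present without being called. The 95% confidence interval of the log2 fold change, from the same fit and not adjusted for the number of miRNAs, lay wholly within 2-fold in either direction for 246 of 428 miRNAs (57.5%). It lay within 1.5-fold for 45 (10.5%). The share within 2-fold fell to 33.3% without day 1 ACL 1, the lowest of the fits that left out 1 library. The share within 2-fold depended on abundance. It was 12.6% of the 103 miRNAs under 10 CPM, 62.7% of the 153 at 10 to 100 CPM, 74.2% of the 97 in the next 10-fold range of CPM and 86.7% of the 75 above that range. Among these most abundant miRNAs, log2 fold changes lay between -0.5 and 0.66. For low miRNAs the data thus allowed changes of more than 2-fold in most cases, and a missing call there is not evidence of equal levels.

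First by p-value was miR-125b-1-3p, the minor arm of a hairpin whose 5p arm is one of the miR-125 guides. Its mature sequence maps to chr9:41581980-41582001 (+) of GRCm38, within introns of the non-coding transcripts 3110039I08Rik and Gm49317 and an exon of the sense-intronic transcript Gm28119. Its normalised abundance was 137, 242 and 212 CPM in day 1 ACL libraries 1 to 3. The naïve libraries ran from 83.9 through a median of 107 to 152 CPM. Thus 2 of the 3 injured libraries lay above every naïve library and the third lay among them. The change was 1.74-fold (log2 fold change 0.8 ± 0.26 SE, 95% interval 0.26 to 1.34, limma-voom adjusted p = 0.992). The unadjusted p stayed under 0.05 when any naïve library or day 1 ACL 1 was left out, and was 0.0797 without day 1 ACL 2 and 0.0536 without day 1 ACL 3. With library totals only it was 0.0803, at a log2 fold change of 0.6. In the contralateral knees of the same day its level was 114, 155 and 195 CPM, which gave a log2 fold change against naïve of 0.46 ± 0.26 SE (limma-voom adjusted p = 0.996). At day 7 the injured libraries held 169, 185 and 173 CPM.

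miR-132-5p and miR-1843a-3p were the other miRNAs above 10 CPM with an unadjusted p under 0.05. miR-132 is induced by CREB signalling in neurons and by inflammatory stimuli in leukocytes, and its 5p arm lies at chr11:75173686-75173707 (+), in an intron of the non-coding 1700016P03Rik. miR-132-5p had 28.2, 15.1 and 50 CPM in day 1 ACL libraries, against 9.83 to 16.4 CPM in 5 naïve libraries and 41 CPM in naïve replicate 6. The groups overlapped, and the log2 fold change of 0.89 ± 0.4 SE (limma-voom adjusted p = 0.992) became 0.38 without day 1 ACL 3. The unadjusted limma-voom p moved both ways with single libraries. It was 0.0365 with all libraries, 0.398 without day 1 ACL 3, 0.00688 without day 1 ACL 2 and 0.00371 without naïve 6. The major arm of the hairpin, miR-132-3p, had a log2 fold change of -0.16. miR-1843a-3p lies at chr12:80391615-80391636 (-), in an intron of Dcaf5. The same positions lie in same-strand exons of Scarna3b, a small non-coding RNA gene, and of the sense-intronic transcript CT030161.1. Whether its reads came from these transcripts was not tested. miR-1843a-3p had 29.2, 48.6 and 61.7 CPM in day 1 ACL libraries. In naïve libraries it had between 19.2 and 35 CPM, with a median of 27.9 CPM. This was 1.63-fold (log2 0.7 ± 0.33 SE, limma-voom adjusted p = 0.992), and the log2 value was 0.37 without day 1 ACL 3.

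The 5 lower miRNAs of this set rested on few reads. miR-6538, in an intron of Rnf144a at chr12:26414970-26414988 (-), had 14, 18 and 21 counts in day 1 ACL libraries and 5 to 14 counts in naïve libraries. On the CPM scale, 7.31, 15.1 and 10.2 stood against a naïve range of 2.77 to 6.76, so the groups did not overlap. The log2 fold change was 0.99 ± 0.38 SE (limma-voom adjusted p = 0.992). miR-365-2-5p had 12, 7 and 11 counts in day 1 ACL libraries and between 2 and 9 in naïve libraries. Its levels of 6.27, 5.86 and 5.34 CPM lay above the naïve range of 1.26 to 4.27 CPM. The remaining 3 were miR-7219-3p, miR-1934-5p and miR-193b-5p, at log2 fold changes of 1.14, 1.46 and 0.97, and for each of them the groups overlapped. Of the 8 miRNAs, none kept an unadjusted limma-voom p under 0.05 in every fit without 1 library that tested it. There were 9 such fits, and miR-7219-3p did not pass the filter in the one without naïve 6. miR-125b-1-3p kept it in 7, miR-6538 in 6 and the others in 2 or 3. GC content was 94.7% in miR-6538, and 59.1% to 60.9% in miR-125b-1-3p, miR-193b-5p, miR-365-2-5p and miR-1934-5p. In miR-132-5p and miR-1843a-3p it was 45.5%. Fold changes rose with GC content over all miRNAs (rho 0.33), and its part in these values was not tested.

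miR-365-2-5p and miR-193b-5p are minor arms of hairpins that lie in pairs, miR-193b with miR-365-1 on chromosome 16 and miR-193a with miR-365-2 on chromosome 11. They were looked at together after their values had been seen. The 5p arms had log2 fold changes of 0.44 ± 0.27 SE (miR-193a-5p), 0.97 ± 0.46 SE (miR-193b-5p), 1.32 ± 0.68 SE (miR-365-1-5p) and 1.03 ± 0.46 SE (miR-365-2-5p). The 3p arms were at -0.06 ± 0.4 SE (miR-193b-3p) and -0.3 ± 0.39 SE (miR-365-3p). None of these 6 arms had an adjusted p under 0.05.

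The ranges of the 3 injured and 6 naïve libraries did not overlap for 6 miRNAs (1.4%), 2 higher (0.467%) and 4 lower (0.935%) in day 1 ACL. The 4 lower were miR-152-5p, miR-34b-3p, miR-16-2-3p and miR-181c-5p, and none had an unadjusted p under 0.05. miR-152-5p, the minor arm of a hairpin in an intron of Copz2 (chr11:96850400-96850423, +), had 87.7, 85.4 and 75.8 CPM in day 1 ACL libraries. Its naïve libraries ran from 90.2 through a median of 101 to 115 CPM, so the groups were parted by a narrow gap. The log2 fold change was -0.29 ± 0.21 SE (limma-voom adjusted p = 0.992). miR-181c-5p, a member of the miR-181 family known from lymphocyte development, lies at chr8:84178924-84178945 (-) in an intron of Nanos3. It had 40.7, 34.3 and 29.6 CPM in day 1 ACL and 41.5 to 58.1 CPM in naïve libraries, a log2 fold change of -0.47 ± 0.27 SE (limma-voom adjusted p = 0.992).

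Among negative fold changes above 10 CPM, the smallest p belonged to miR-329-3p of the imprinted cluster on chromosome 12. Its levels were 30.3, 19.3 and 16.5 CPM in day 1 ACL libraries, and the naïve libraries ran from 27.1 through a median of 30.7 to 37.5 CPM. Day 1 ACL libraries 2 and 3 lay below every naïve library and library 1 lay among them. The log2 fold change was -0.53 ± 0.26 SE (limma-voom adjusted p = 0.992). miR-142b followed at -0.86 ± 0.43 SE. It is annotated antisense to miR-142a (chr11:87756906-87756925, -), a leukocyte miRNA, and its counts cannot be taken as certain where strand is not stated. miR-18a-5p of the miR-17/92 cluster, whose miRNAs act on proliferation, had 28.7, 32.7 and 15.5 CPM against 25.2 to 56.6 CPM in naïve libraries, a log2 fold change of -0.7 ± 0.37 SE. From the same cluster, miR-19b-3p was at -0.46 ± 0.29 SE, miR-19a-3p at -0.48 ± 0.35 SE, miR-20a-5p at -0.31 ± 0.24 SE, miR-17-5p at -0.28 ± 0.39 SE and miR-92a-3p at -0.19 ± 0.29 SE. The mature sequence of miR-19b-3p also lies on chromosome X, so its counts cannot be assigned to this cluster alone. Whether the same holds for miR-92a-3p was not looked up. The minor arms were at 0.39 ± 0.64 SE for miR-18a-3p, -0.14 ± 0.31 SE for miR-17-3p and -0.14 ± 0.5 SE for miR-92a-1-5p, so the 2 arms of miR-18a differed in sign. This cluster was singled out after its values had been seen, and none of these arms had an unadjusted p under 0.05.

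**Figure D3:**
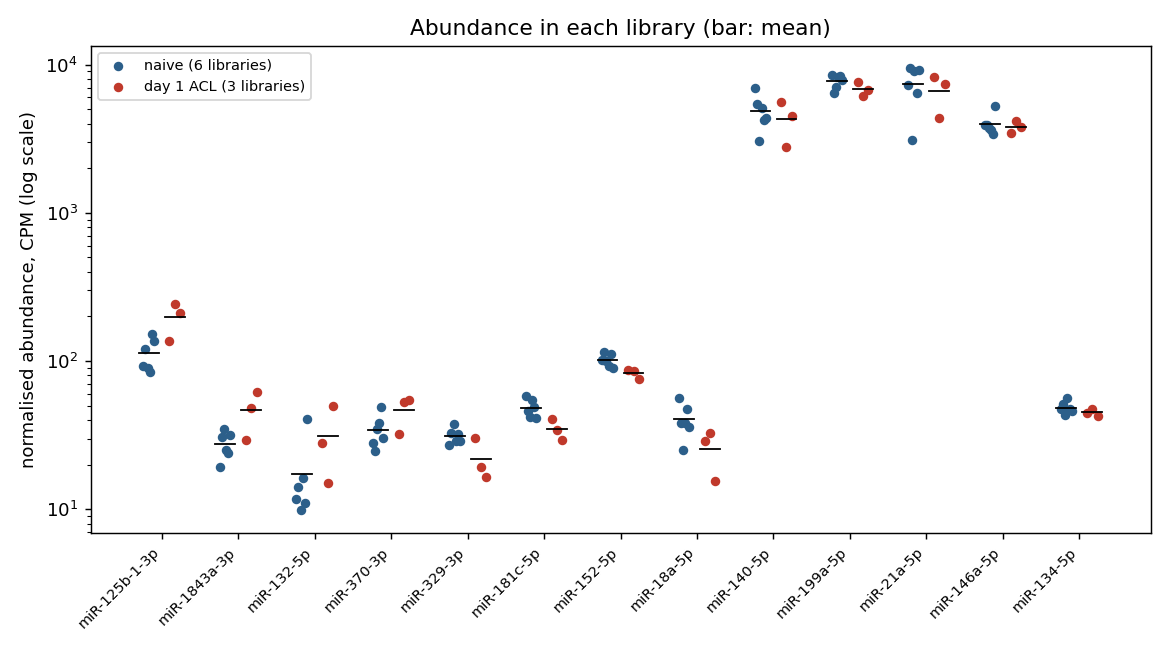
Normalised abundance (CPM, log axis) of 13 miRNAs in each of 6 naïve (blue) and 3 day 1 ACL (red) libraries, with a bar at each group mean. The groups overlap for 11 of them, and only for miR-181c-5p and miR-152-5p do all red points lie below all blue points.

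The most abundant miRNAs varied widely between libraries of 1 group. miR-148a-3p had 146829, 61027 and 271387 CPM in day 1 ACL libraries, and its naïve libraries ran from 41454 through a median of 82050 to 251151 CPM. The log2 fold change of 0.56 therefore carried an SE of 0.59 and an interval of -0.66 to 1.79. miR-26a-5p was steadier, at 85147, 70047 and 76620 CPM against 71014 to 87615 CPM in naïve libraries, with a log2 fold change of -0.03 ± 0.27 SE. miR-99a-5p was at 0.39 ± 0.26 SE and the endothelial miR-126a-3p at 0.16 ± 0.22 SE.

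Cartilage miRNAs showed no change that passed the test at day 1. Of the 4 arms of miR-140 and miR-455, 3 were negative and 1 was positive, with a median log2 fold change of -0.15 beside 0.07 over all miRNAs tested. miR-140-3p, the less abundant arm of its hairpin in these libraries, lies in an exon of Wwp2 (chr8:107551288-107551308, +). It had 2328, 3014 and 2336 CPM in day 1 ACL libraries and 2232 to 3250 CPM in naïve libraries, with a median of 2897 CPM. Its interval of -0.53 to 0.28 left out a 1.5-fold rise as well as a 1.5-fold fall, within the 95% level. miR-140-5p had 5635, 2760 and 4516 CPM against 3070 to 6995 CPM (log2 -0.18 ± 0.33 SE). miR-455-5p, in an intron of the collagen gene Col27a1 (chr4:63256867-63256888, +), had 139, 102 and 102 CPM against 103 to 240 CPM (log2 -0.41 ± 0.27 SE). Its other arm, miR-455-3p, was at 0.37 ± 0.41 SE.

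The inflammatory and mechanical lists gave the same picture. Of 13 tested arms in the innate and inflammatory list, 4 were positive and 9 negative, 0 were called, and the median was -0.11. miR-132-5p, described above at 0.89, belongs to this list and was its 1 arm with an unadjusted limma-voom p under 0.05. miR-146a-5p, a brake on NF-kB signalling, had 3450, 4134 and 3786 CPM in day 1 ACL libraries, all within the naïve range of 3398 to 5263 CPM. Its log2 fold change was -0.06 ± 0.18 SE with an interval of -0.44 to 0.32. miR-155-5p, which macrophages induce on activation, had 132, 132 and 89.4 CPM against 91.6 to 153 CPM (log2 -0.05 ± 0.32 SE). Of the 10 tested arms in the mechanical load list, 6 were positive and 4 negative, with a median of 0.06. miR-21a-5p, in an exon of Vmp1 (chr11:86584120-86584141, -), had 8263, 4357 and 7409 CPM and stayed within the naïve range of 3099 to 9475 CPM (log2 -0.11 ± 0.31 SE). miR-27b-3p was at 0.1 ± 0.2 SE and miR-221-3p at 0.13 ± 0.25 SE, both with intervals within 2-fold. miR-31-5p had 8.88, 5.86 and 4.37 CPM against 6.09 to 11.1 CPM (log2 -0.26 ± 0.33 SE). miR-210-3p, the hypoxia-induced miRNA, had 35, 29.3 and 34.5 CPM against 28.8 to 58.6 CPM (log2 -0.29 ± 0.33 SE).

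Levels of marker miRNAs of blood, muscle and vessels were also compared between the groups. The 7 tested leukocyte arms had 1 positive and 6 negative log2 fold changes, with a median of -0.16. Their summed level was 3967 to 5215 CPM in day 1 ACL and 2931 to 6916 CPM in naïve libraries, and miR-142a-3p, miR-223-3p, miR-150-5p and miR-155-5p had counts in every library. miR-142a-3p, found in all blood leukocytes, was at -0.5 ± 0.41 SE and the neutrophil miRNA miR-223-3p at -0.16 ± 0.28 SE. The 7 erythroid arms had 5 positive and 2 negative values with a median of 0.18, where miR-486a-5p and miR-486b-5p had the same counts and are 1 measurement. miR-486a-3p and miR-486b-3p had nearly equal counts, such as 543 and 520 in day 1 ACL 1, and are not independent measurements. With the 5p pair counted once and both 3p arms kept, the erythroid sum was 6524, 10681 and 9643 CPM in day 1 ACL libraries. In naïve libraries it was 6512 to 9057 CPM. Day 1 ACL 2 and 3 thus lay above every naïve library and library 1 lay among them. The largest part of this sum was miR-486a-5p, with a mean of 5302 CPM, and the other erythroid miRNAs did not all share its sign. Values for the miR-486 hairpins lay between 0.16 and 0.22, whereas miR-144-5p was at -0.24 and miR-144-3p at -0.2. miR-451a, the most specific red cell marker, had 1512, 988 and 2075 CPM against 684 to 2010 CPM (log2 0.22 ± 0.36 SE). Only day 1 ACL 3 lay above its naïve range. Of the 7 tested muscle arms, 4 were positive and 3 negative with a median of 0.01. Of the 6 vascular arms, 4 were positive with a median of 0.07. The part of these tissues in the other values was not tested.

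The remaining families were also close to 0. The 18 let-7 arms had a median log2 fold change of 0.1, with 12 positive and 6 negative values between -0.4 and 0.31, and 16 of the 18 intervals lay within 2-fold. The most abundant, let-7i-5p, had 51455, 58641 and 46373 CPM against 41552 to 50790 CPM (log2 0.15 ± 0.16 SE). The summed let-7 level was 180995, 179021 and 176369 CPM in day 1 ACL libraries and 136224 to 178874 CPM in naïve libraries. For let-7i-5p and for this sum, day 1 ACL 1 and 2 lay above every naïve library and library 3 lay among them. The 5 arms of the miR-29 family, which targets collagen messages, had a median of -0.02. Of the 6 arms of miR-199 and miR-214, 4 were positive with a median of 0.09. miR-199a-5p had 7675, 6101 and 6784 CPM in day 1 ACL libraries and 6438 to 8534 CPM in naïve libraries, with a log2 fold change of -0.17 ± 0.24 SE and an interval of -0.68 to 0.34. miR-199a-3p and miR-199b-3p had the same counts in every library and are 1 measurement, at 0.16 ± 0.27 SE. With library totals only, the medians of all 13 lists were negative, from -0.51 to -0.03, so the sign of a small list median is not read as a direction.

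**Figure D4:**
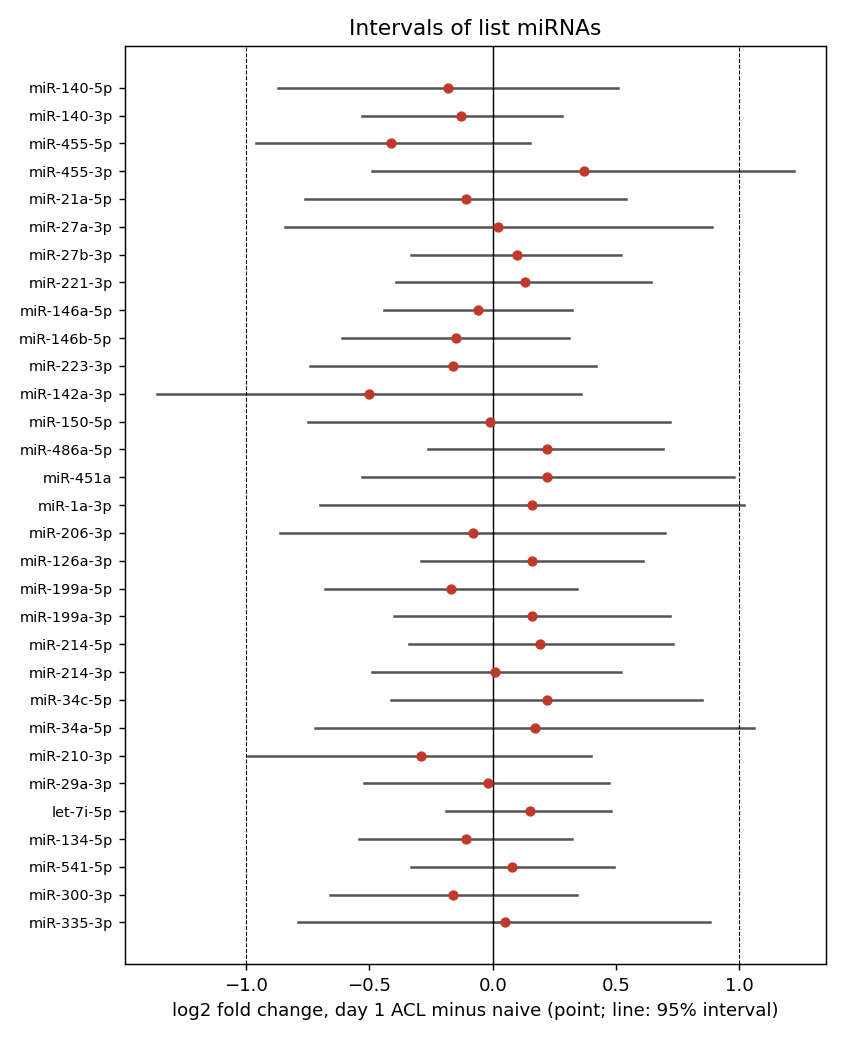
Log2 fold change of day 1 ACL minus naïve cartilage (points) with 95% intervals (lines) for 31 miRNAs of the lists, with dashed lines at 2-fold either way. Every interval includes 0, and those of miR-140-3p, miR-146a-5p and miR-134-5p are among the narrow ones.

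In the miR-34 family, targets of p53 that act on the cell cycle, the 5p arms were near 0 and the 3p arms were low in counts. miR-34c-5p had 58, 38.5 and 48.1 CPM in day 1 ACL libraries against 25.2 to 54.3 CPM in naïve libraries (log2 0.22 ± 0.3 SE). miR-34b-3p had 7, 6 and 7 counts in day 1 ACL libraries and between 10 and 18 in naïve libraries. In CPM, 3.66, 5.03 and 3.4 lay below the naïve range of 6.14 to 12.8, and the log2 fold change was -0.99 ± 0.48 SE (limma-voom adjusted p = 0.992). miR-34c-3p, with the same seed, had 1, 10 and 0 counts in day 1 ACL libraries against 2 to 11 in naïve libraries, and its log2 value of -1.37 ± 0.79 SE depends on the offset added to a count of 0.

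The miRNAs that separated injured cartilage at day 7 from day 1 were then read at day 1. Day 7 ACL was compared directly with day 1 ACL, which leaves out the naïve libraries but shares the 3 day 1 ACL libraries with the comparison above. The study's supplement gives pools of 4 mice because cartilage was partly lost at day 7. Its methods count more injured mice at day 7 than at day 1 for the same number of libraries. Pool size and cartilage loss therefore cannot be told apart from the day in this contrast. There, 67 of 428 miRNAs had a limma-voom adjusted p under 0.05 (15.7%), 52 higher (12.1%) and 15 lower (3.5%) at day 7. Of these 67, 41 had a day 1 interval against naïve within 2-fold, and 1, miR-6538, had an unadjusted p under 0.05 at day 1. The 52 that were higher at day 7 had a median log2 fold change of -0.08 in day 1 ACL versus naïve, with 22 positive. The 15 that were lower at day 7 had a median of 0.22, with 12 positive. Because day 1 ACL enters the 2 comparisons with opposite sign, no relation between them is drawn.

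miR-134-5p, in an exon of the non-coding Mirg (chr12:109734145-109734166, +), had 44.9, 47.7 and 42.8 CPM at day 1 and 43 to 56.2 CPM in naïve libraries. At day 7 the injured libraries held 199, 250 and 239 CPM, all above every day 1 and naïve library. The log2 fold change was -0.11 ± 0.21 SE at day 1 against naïve and 2.34 ± 0.23 SE from day 1 to day 7 (limma-voom adjusted p = 1.37e-06). miR-335-3p, in an intron of the imprinted gene Mest (chr6:30741354-30741375, +), had 38.6, 30.2 and 37.9 CPM at day 1, 24 to 52.9 CPM in naïve libraries and 306, 487 and 501 CPM at day 7. Its log2 fold change was 0.05 ± 0.4 SE at day 1 and 3.56 ± 0.43 SE from day 1 to day 7 (limma-voom adjusted p = 9.73e-06). miR-541-5p was at 0.08 ± 0.2 SE, miR-379-3p at -0.24 ± 0.27 SE and miR-300-3p at -0.16 ± 0.24 SE at day 1, and from day 1 to day 7 they were at 1.91, 2.39 and 2.2.

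By list, the 12qF1 imprinted cluster had 48 tested arms, of which 27 were positive and 21 negative at day 1, with 0 called and a median of 0.03. From day 1 to day 7, 30 of the 48 were called higher, with a median of 1.55, beside 52 of all 428 miRNAs (12.1%). The day 1 values spread from -1.11 (miR-380-3p) to 0.78 (miR-380-5p), the 2 arms of 1 hairpin, and 23 of the 48 intervals lay within 2-fold. Of the miR-199 and miR-214 arms, 5 of 6 were called higher from day 1 to day 7 (median 1.13), and of the miR-34 arms 4 of 5 (median 2.64). miR-199a-3p and miR-199b-3p, both called, are 1 measurement. Of the 7 erythroid arms, 4 were called lower (median -1.26), all of them arms of miR-486a and miR-486b. Their 5p arms had the same counts, and their 3p arms had nearly equal counts in the day 1 ACL and naïve libraries, so these 4 are not independent. Over all 428 miRNAs, 15 were called lower (3.5%). The lists were chosen with earlier results of these data known, so these shares are not compared. miR-21a-5p was at 1.96 ± 0.35 SE from day 1 to day 7 (limma-voom adjusted p = 0.000482).

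**Figure D5:**
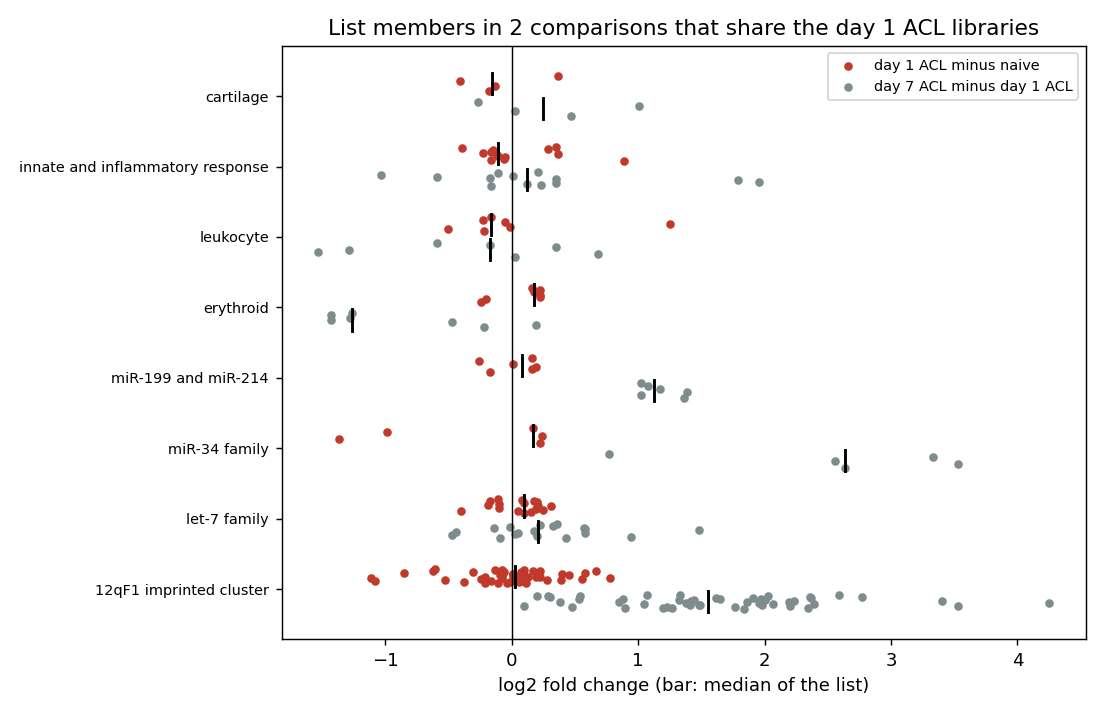
Log2 fold change of each tested list member in day 1 ACL minus naïve (red) and in day 7 ACL minus day 1 ACL (grey), with a bar at each list's median. The red medians lie between -0.16 and 0.18 in the 8 lists shown, while the grey medians reach 1.55 in the 12qF1 cluster and 2.64 in the miR-34 family; both colours use the same day 1 ACL libraries.

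The day 1 contralateral knees were then taken in. The mean of the day 1 ACL and day 1 contralateral groups was set against naïve, which measures what both knees share and sets no bound on a change in the injured knee alone. Knees of 1 mouse are not independent. No miRNA was called (0 of 428 with limma-voom, smallest adjusted p = 0.999), 9 had an unadjusted p under 0.05 (2.1%), and miR-125b-1-3p again came first with a log2 fold change of 0.63 ± 0.21 SE. The intervals of that mean lay within 2-fold for 329 of 428 miRNAs (76.9%), with a median SE of 0.27. Day 1 ACL against day 1 contralateral gave 0 calls, with 8 at an unadjusted p under 0.05 (1.87%).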

How the data were processed

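The authors trimmed reads with Trim Galore 0.6.6, aligned them with Bowtie 1.3.0 to the mature miRNAs of miRBase and counted them with SAMtools 1.12 in an nf-core small RNA pipeline set to GRCm38, and the values were deposited as raw counts per mature miRNA. Handling of reads matching several miRNAs is not stated. In 7 sets (15 miRNAs), members carried equal counts in every library and are 1 measurement each. Rows were matched to samples by library number, since prefixes differ. Replicates were numbered in accession order.

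Counts were analysed in R 4.3.3 with filterByExpr (minimum count 10, minimum total 15) and TMM of edgeR 4.0.16, and voom, lmFit and eBayes of limma 3.58.1 on all 18 libraries with 1 mean per group, two-sided, with Benjamini-Hochberg adjustment over 428 miRNAs. CPM uses TMM sizes. The study's term for mouse pools was left out, since pools are not labelled. DESeq2 1.42.0 and edgeR's quasi-likelihood test were alternatives. Replicate pairs differed by more than sampling noise (chi-square per degree of freedom 49.5 to 751 over 18 pairs).

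Host genes came from GENCODE for GRCm38. Figures were drawn with matplotlib 3.10.9 in Python 3.11.15. Members and lists were chosen with earlier results of these data known. The text names the 10 miRNAs with the smallest p each way above 10 CPM, the 5 most abundant, all tested members of lists with up to 6 or the 4 most abundant of longer lists, and the 6 with the smallest p from day 1 to day 7. Others were added after their values were seen, and not every miRNA of the rule is described. Totals limit the precision of low miRNAs, and PCR copies are not independent molecules.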

Additional observations from a re-analysis of the deposited data

Results flagged for a closer look

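In the naïve group, 95 sets of 6 values were searched for a single library far from the other 5, and 5 were found, where chance gives about 1 in 20. Naïve replicate 6 had 41 CPM of miR-132-5p, with the next at 16.4, and 5263 CPM of miR-146a-5p, with the next at 3925. Naïve replicate 5 had 322 CPM of miR-214-3p and 12.8 CPM of miR-34b-3p, with the next libraries at 206 and 8.37. Naïve replicate 3 had 2931 CPM of leukocyte miRNAs, with the next library at 5470, and it is 1 of the 3 shallowest libraries.

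For 26 of the 79 named miRNAs, the change against naïve differed between day 7 and day 1, tested as day 7 ACL minus day 1 ACL (limma-voom adjusted p under 0.05), beside 67 of all 428 miRNAs (15.7%). Because 6 of the 79 were named for the smallest p in that same contrast, and other lists were chosen with its results known, the 2 shares are not compared. On the log2 scale, the difference was 2.34 for miR-134-5p, 1.91 for miR-541-5p, 3.56 for miR-335-3p, 2.39 for miR-379-3p, 2.2 for miR-300-3p, 2.07 for miR-379-5p, 1.97 for miR-434-5p, 1.27 for miR-127-3p, 1.44 for miR-370-3p and 1.49 for miR-329-3p. It was 2.64 for miR-34c-5p, 3.53 for miR-34c-3p, 2.56 for miR-34b-5p and 3.33 for miR-34b-3p. It was 1.36 for miR-199a-5p, 1.02 for miR-199a-3p and miR-199b-3p, 1.39 for miR-214-5p, 1.17 for miR-214-3p, 1.96 for miR-21a-5p and 1.01 for miR-455-5p. Negative differences were -1.53 for miR-150-5p, -1.43 for miR-486a-5p and miR-486b-5p, -1.32 for miR-504-5p and -1.24 for miR-328-3p. For miR-329-3p and miR-455-5p the day 1 value against naïve was negative, at -0.53 and -0.41.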

How the results depend on the processing

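The count of calls stayed at 0 under all 20 alternatives run, with smallest adjusted p-values between 0.41 (without day 1 ACL replicate 2) and 1. The number of miRNAs at an unadjusted p under 0.05 was 26 when every miRNA with a count was kept, 3 with at least 10 counts in every library, 5 with DESeq2 and 23 with voomWithQualityWeights, and 15 without the 3 shallowest libraries. Leaving out 1 library at a time gave 4 to 19, with 14, 19 and 5 without day 1 ACL replicates 1, 2 and 3 and 4, 4 and 19 without naïve replicates 1, 2 and 3. The share of intervals within 2-fold was 17.8% with every miRNA kept, and 33.3% to 54.5% when 1 library was left out, the lowest without day 1 ACL replicate 1.

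With library totals only, list medians moved to -0.14 (mechanical load), -0.11 (let-7 family) and -0.17 (12qF1 cluster). The 12qF1 median was 0.19 with quality weights and 0.26 without the 3 shallowest libraries. Leaving out 1 library gave medians of -0.17 to 0.17 for that cluster, -0.15 to 0.1 for mechanical load, -0.39 to 0.41 for skeletal muscle and -0.25 to 0.45 for the miR-29 family. The alternatives without the 3 shallowest libraries and with log10 library total as a covariate were chosen after seeing the data. The cause of these shifts was not tested. Low depth limits miRNAs under 10 CPM. No paired analysis was possible because the replicate numbers were given in accession order and the labels name no pools.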
